A study of Homo sapiens with 12 samples.

Results

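HAPLN1, NPPC, A4GALT and A2M are 4 of the 44659 genes counted in A375 cells, a human melanoma line driven by mutant BRAF, and they were chosen by their measured counts, which fell steeply under combined BRAF and MEK inhibition (MAPKi). The choice used the control, treated and persister libraries, so the falls described for those groups are descriptions and carry no test. The 12 libraries formed 4 groups of 3. Control cells (CC) received DMSO for 72 h and were harvested at day 0. The TC group (treated cells) was exposed for 72 h to the BRAF inhibitor vemurafenib and the MEK inhibitor cobimetinib, each at 500 nM, and was also harvested at day 0. Persister cells (PC) had the same treatment and then 2 days without drug, and recovered cells (RC) had it and then 9 days without drug, with passaging when needed. TC, PC and RC were plated as separate batches, 1 for each harvest time, so batch and group cannot be told apart between them. All the controls were day 0 cells, so time in culture and earlier treatment cannot be told apart in PC and RC. All cells came from this 1 line. The labels give the RNA as cytoplasmic, while the study's methods speak of total RNA. The sources do not say that same-group libraries came from independent cultures, so p-values measure the spread between these libraries.

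The 4 genes belong to different pathways. HAPLN1 encodes a secreted link protein that holds proteoglycans on hyaluronan chains, and is best known from cartilage. NPPC encodes C-type natriuretic peptide, a ligand that makes its receptor NPR2 produce cyclic GMP. A4GALT is the Golgi enzyme that adds a terminal galactose to lactosylceramide to form globotriaosylceramide (Gb3), the first lipid of the globo series. A2M encodes alpha-2-macroglobulin, a large secreted protein that traps proteases of every class and is cleared through the receptor LRP1. In most BRAF-mutant melanoma cells the MAPK pathway (RAF, MEK, ERK) runs without an outside signal, and the inhibitors lower its output.

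All 4 genes lie on the minus strand (hg38, GENCODE v44). HAPLN1 spans chr5:83637805-83720855 with 5 exons in its canonical transcript, and NPPC spans chr2:231921809-231926396 with 3 exons. A4GALT spans chr22:42692121-42721298 with 3 exons, and A2M spans chr12:9067664-9116229 with 36 exons. RefSeq promoter entries (GRCh38.p14) matched 3 of the 4 genes, namely HAPLN1, NPPC and A4GALT, the last with 2 start sites. The 250 bases before each start are shown because these 3 genes fell and returned together, and capitals mark a TATA box (TATAAA) or a TEAD motif (GGAATG, here on the opposite strand).
HAPLN1, chr5:83720856-83721105, minus strand: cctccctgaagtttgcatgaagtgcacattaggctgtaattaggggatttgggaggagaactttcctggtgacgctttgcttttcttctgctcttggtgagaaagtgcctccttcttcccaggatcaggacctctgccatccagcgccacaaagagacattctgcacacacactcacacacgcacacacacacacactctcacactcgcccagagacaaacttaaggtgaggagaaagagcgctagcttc
NPPC, chr2:231926397-231926646, minus strand: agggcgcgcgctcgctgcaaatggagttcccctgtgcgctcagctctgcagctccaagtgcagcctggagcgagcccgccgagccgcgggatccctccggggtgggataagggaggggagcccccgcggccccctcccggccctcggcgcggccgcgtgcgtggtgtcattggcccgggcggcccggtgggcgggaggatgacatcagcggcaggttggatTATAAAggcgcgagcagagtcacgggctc
A4GALT, chr22:42720871-42721120, minus strand: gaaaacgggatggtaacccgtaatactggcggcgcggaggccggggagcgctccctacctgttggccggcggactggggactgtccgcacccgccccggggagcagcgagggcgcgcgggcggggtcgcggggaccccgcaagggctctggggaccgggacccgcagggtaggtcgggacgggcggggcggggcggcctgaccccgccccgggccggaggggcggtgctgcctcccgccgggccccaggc
A4GALT, upstream start, chr22:42721302-42721551, minus strand: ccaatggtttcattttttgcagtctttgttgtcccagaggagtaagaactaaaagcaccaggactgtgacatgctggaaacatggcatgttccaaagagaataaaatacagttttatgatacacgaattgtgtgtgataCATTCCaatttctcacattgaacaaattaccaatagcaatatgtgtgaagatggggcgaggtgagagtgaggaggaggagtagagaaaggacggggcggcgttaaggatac

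The promoters differed in base composition. The NPPC window had 72.0% G and C and 28 CpG pairs, and the downstream A4GALT window had 79.2% and 33, against medians of 58.0% and 11 over 35116 promoters. The HAPLN1 window had 50.8% and 5 CpG pairs, and the upstream A4GALT window 42.0% and 5. The search ran on both strands and covered 7 motifs, the TATA box and TEAD among them. For ETS factors the letters were CCGGAA. For AP-1, the dimer of JUN and FOS proteins, they were TGANTCA. The cyclic AMP response element (CRE) was searched as TGACGTCA. The E-box, bound by many helix-loop-helix factors, was CACGTG. The core of the M-box, bound by the melanocyte factor MITF, was searched as CATGTG. The search found the TATA box of NPPC, at 29 bases before the start site, and 1 TEAD motif 111 bases before the upstream A4GALT start. No other match was found in the 4 windows. Of all promoters of this length, 14.5% held the ETS letters, 6.57% AP-1, 1.65% CRE, 6.35% the E-box, 9.42% the M-box core, 10.7% the TATA box and 11.9% TEAD. Thus no motif of the 7 was shared by the 3 genes.

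Reads were counted per gene, and 37773389 to 55567097 counts were assigned per library. Expression is in CPM, the count of a gene divided by its normalized library size and put on a common scale, so 3 counts in a library correspond to 0.0534 to 0.0785 CPM. All intervals on counts cover counting error only. Genes of the drug's direct output, such as the feedback regulators DUSP4, DUSP6 and SPRY4, were lower in TC in 10 of 10 cases, beside 34.7% of all tested genes, with a median log2 fold change of -3.50. Of 10 melanocyte lineage genes, 9 were at 1 CPM or more in CC and 10 in TC, where 7 were called higher, beside 33.2% of all genes, and 1 lower. Of these lineage genes DCT went from 407 to 6452 CPM and NGFR from 4.53 to 4466, while S100B fell from 264 to 140 CPM and MITF was at 362 and 321 CPM. The summed levels of the 3 leukocyte markers were at most 0.694 CPM in any library, those of the 3 hepatocyte markers 0.409 CPM, those of the 3 keratinocyte markers 2.64 CPM and those of the 3 endothelial markers 5.23 CPM. Those of the 3 chondrocyte markers were higher, at 94.1 to 122 CPM in CC, 67.5 to 150 in TC and 192 to 207 in PC. Most of this came from ACAN, at 107 CPM in CC and 199 CPM in PC.

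HAPLN1 was an abundant mRNA in control cells and nearly absent under MAPKi. In CC its level was 155, 203 and 233 CPM in replicates 1 to 3, which is 197 ± 39.6 CPM (SD, n = 3). In TC it was 0.233, 0.204 and 0.746 CPM, from 9, 8 and 40 reads, and in PC 0.314, 0.652 and 0.347 CPM, from 12, 30 and 15 reads. No TC or PC library came near the lowest control library, and TC and PC overlapped each other. Summed over libraries, CC was 458 times TC (95% interval 354 to 605) and 445 times PC (343 to 588). TC replicate 3 held most of the remaining reads: without it the ratio of CC to TC was 910 (568 to 1562). In RC the level was back at 155, 136 and 137 CPM, or 143 ± 10.3 CPM (n = 3). RC replicate 1 equalled CC replicate 1 to 3 digits, and the other RC libraries were below all controls.

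NPPC, the gene of the peptide ligand, followed the same course at a lower level. In CC it stood at 21.3, 26.9 and 33.2 CPM, a mean of 27.1 ± 5.99 CPM (SD, n = 3). The TC libraries held 1, 2 and 5 NPPC reads and the PC libraries 2, 0 and 0. TC and PC were thus around the level of 3 reads in a library, more than an order of magnitude under the controls, and their ranges overlapped. CC was 451 times TC (95% interval 228 to 1045) and 1750 times PC (484 to 14456) on summed counts. TC replicate 3 and PC replicate 1 weighed on these ratios. Without the former CC was 711 times TC (243 to 3451), and without the latter PC had 0 reads. The ratio of CC to PC was then 817, taking 3 reads over the group as the floor, and its 95% interval began at 664. In RC the level was 42.1, 36.9 and 39.4 CPM, or 39.5 ± 2.63 CPM (n = 3), and every RC library was above every control library.

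A4GALT went to the detection limit. Its control level was 13.9, 14.5 and 9.59 CPM, a mean of 12.7 ± 2.69 CPM (SD, n = 3), from 1659 reads in all. The 3 TC libraries held 0, 0 and 1 read and the 3 PC libraries none. TC and PC could not be told apart at this depth. The ratio of CC to TC was 1650, with a wide interval of 296 to 65214 because it rests on 1 read in TC replicate 3. Without that library TC had 0 reads. The ratio was then 326 with 3 reads over the group as the floor, and its 95% interval began at 264. With 3 reads over the group, 0.0235 CPM, as the floor, CC was 534 times PC. The exact 95% interval of this ratio began lower, at 434. In RC the level was 13.2, 11.5 and 11.3 CPM, or 12.01 ± 1.06 CPM (n = 3), inside the range of the controls.

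A2M did not share this pattern, and the label of a silenced gene goes against its data. It was the 27th most abundant of all listed genes by CPM in CC, at 2071, 1492 and 1887 CPM (1817 ± 296 CPM, SD, n = 3). In TC it was at 821, 780 and 742 CPM (781 ± 39.7 CPM), and in PC at 372, 395 and 366 CPM (378 ± 15.1 CPM). These means were 43.0% and 20.8% of the control mean, and the groups CC, TC and PC did not overlap. Even in PC the gene ranked 373rd by CPM and was above 97.7% of the 15916 tested genes. In RC it was at 653, 624 and 716 CPM (664 ± 46.8 CPM), 36.6% of the control mean. The RC libraries lay above every PC library and below every TC library, and this difference was not tested.

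Per kilobase of annotated exon, which allows genes to be compared, the order in CC was A2M at 288 CPM per kb, HAPLN1 at 31.8, NPPC at 25.3 and A4GALT at 3.77. In TC it was A2M at 124 CPM per kb, HAPLN1 at 0.0637, NPPC at 0.0528 and A4GALT at 0.00185, the last from a single read. In RC NPPC, at 36.7 CPM per kb, stood above HAPLN1, at 23.0. The GENCODE lengths are not those of the annotation used for counting. These bulk levels cannot tell fewer expressing cells from less RNA per cell.

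**Figure D1:**
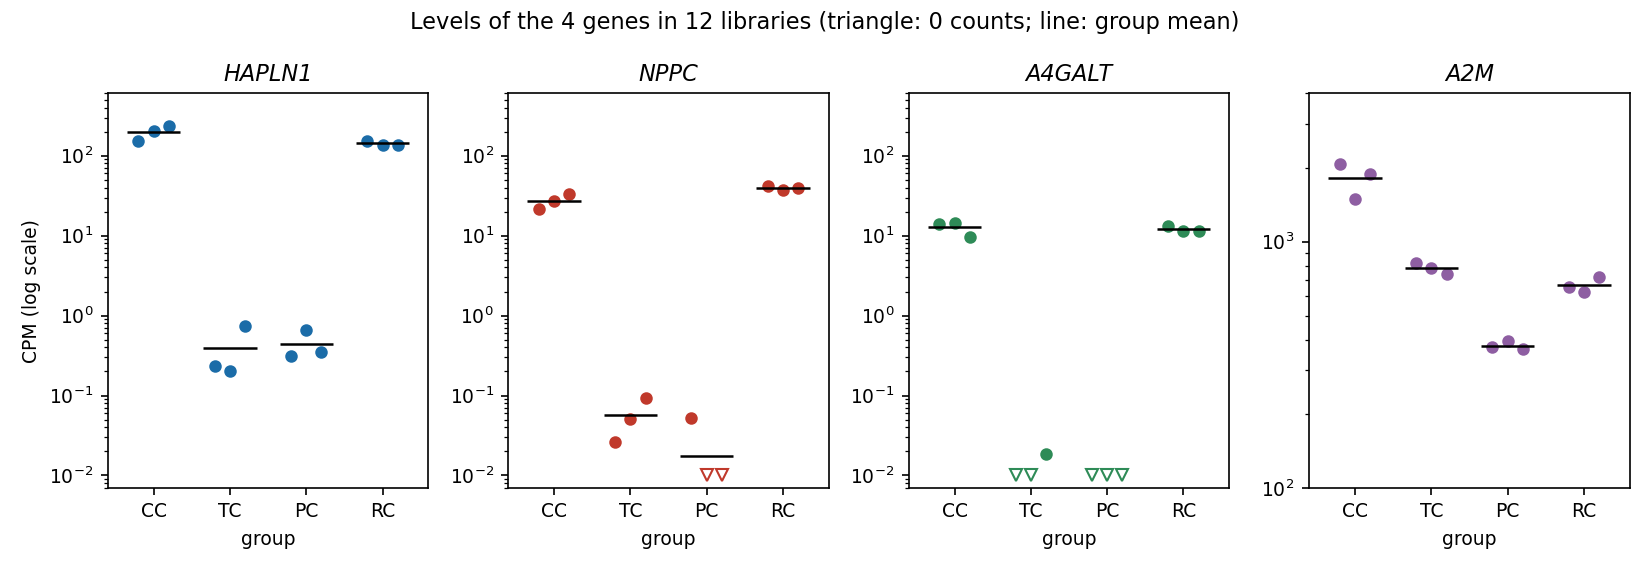
CPM (log axis) of HAPLN1, NPPC, A4GALT and A2M in the 3 libraries of each group, in replicate order, where filled points are libraries, lines are group means and open triangles are libraries with 0 counts, drawn at the bottom of the axis. The first 3 genes drop in TC and PC and return in RC, while A2M, on its own axis range, stays between 366 and 821 CPM in TC, PC and RC.

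In the fit across all genes 4 of 4 genes were lower in TC and in PC, as their choice required, beside 34.7% of all genes in TC and 35.9% in PC, and nothing is read from this. The fitted log2 fold change of A2M was -1.22 (SE 0.10) in TC and -2.27 (SE 0.11) in PC, which placed A2M at rank 2206 from the lowest in TC. HAPLN1 had the 6th lowest fitted value in TC and NPPC the 7th, at -8.84 (SE 0.31) and -8.74 (SE 0.34). A4GALT had the lowest in both TC and PC, a value that depends on the small count the fit adds to genes at 0.

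Comparison of RC with CC asked how far each gene had returned after 9 days without drug. The RC libraries had no part in choosing the genes, but the CC libraries did. A gene chosen for high CC values can appear lower in RC through that choice alone, so the p-values below are not independent of it. A2M was still lower in RC, by a log2 fold change of -1.45 (SE 0.10, 95% interval -1.68 to -1.22; edgeR quasi-likelihood test, Benjamini-Hochberg adjusted p = 7.01e-06), and all 3 RC libraries were below all 3 controls. NPPC was higher, by 0.54 (SE 0.19, 0.13 to 0.95; adjusted p = 0.0406). HAPLN1 was at -0.46 (SE 0.19, -0.88 to -0.05; adjusted p = 0.0731) and A4GALT at -0.08 (SE 0.21, -0.54 to 0.38; adjusted p = 0.802), neither past the threshold of 0.05. Thus 1 of 4 genes was lower and 1 higher, beside 19.1% and 18.2% of all tested genes. The NPPC call was lost when CC replicate 1 or 2, TC replicate 2 or any RC library was left out (0.39 to 0.59). HAPLN1 passed the threshold without CC replicate 1 (-0.61, adjusted p = 0.0310) or without TC replicate 3 (-0.47, adjusted p = 0.0250).

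PC was then set beside TC, to see how the levels differed after the first 2 days without drug. Both groups had served in choosing the genes, so the values are a description and no p is given. A2M was lower in PC, with a fitted log2 fold change of -1.05 (SE 0.10, 95% interval -1.27 to -0.82), and no PC library overlapped a TC library. HAPLN1 had 57 reads in each group, and its PC and TC libraries overlapped. NPPC had 8 reads in TC and 2 in PC, and A4GALT 1 and 0, so no fold change is given for either. Over all tested genes, 12.5% were called lower and 12.2% higher in PC than in TC, and nothing is read from this for the 4 genes.

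**Figure D2:**
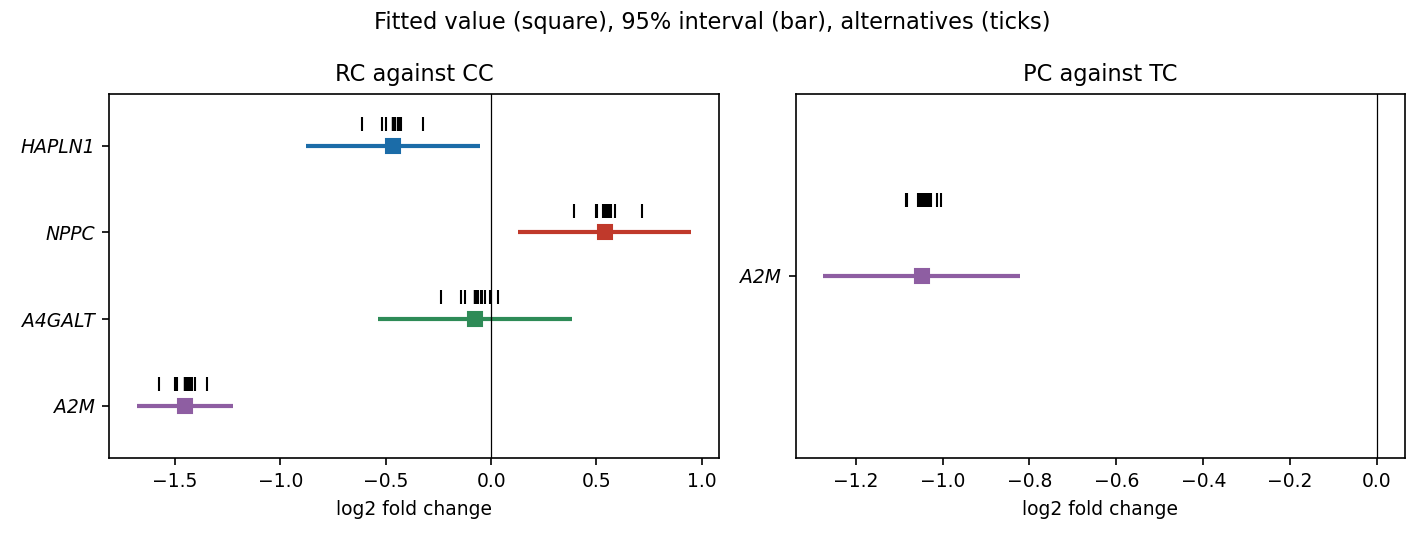
Fitted log2 fold change (square) with its 95% interval (bar) for RC against CC on the left and, for A2M as a description, PC against TC on the right, and the value under each alternative setting (black ticks). A2M is at -1.45 for RC against CC and at -1.05 for PC against TC, and NPPC is at 0.54 for RC against CC. The CC, TC and PC libraries were used in choosing the genes, so neither panel is independent of that choice.

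Among genes with a control mean of at least 5 CPM, the 3 deeply falling genes were at one end of the range. Of 10551 such genes 25 (0.237%) had TC and PC means under 2% of the control mean, limits set after the values were seen. HAPLN1, NPPC and A4GALT had the 3 lowest percentages in TC among the 25, at 0.2004%, 0.209% and 0.0491%. The genes were chosen on their falls in these same libraries, so this order restates the choice. Of the 25, 16 were back between 50% and 200% of the control mean in RC, these 3 among them, at 72.5%, 145% and 94.8%. KDR, a receptor for vascular endothelial growth factor, HGF, the ligand of the MET receptor, and EGR1, an immediate early transcription factor, were at 33.8%, 18.3% and 41.7% in RC. A2M belonged to a different set: 1298 genes were under 50% of the control mean in TC and PC, and A2M was 1 of 118 of them (9.09%) that were still under 50% in RC. These percentages share the CC libraries.

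**Figure D3:**
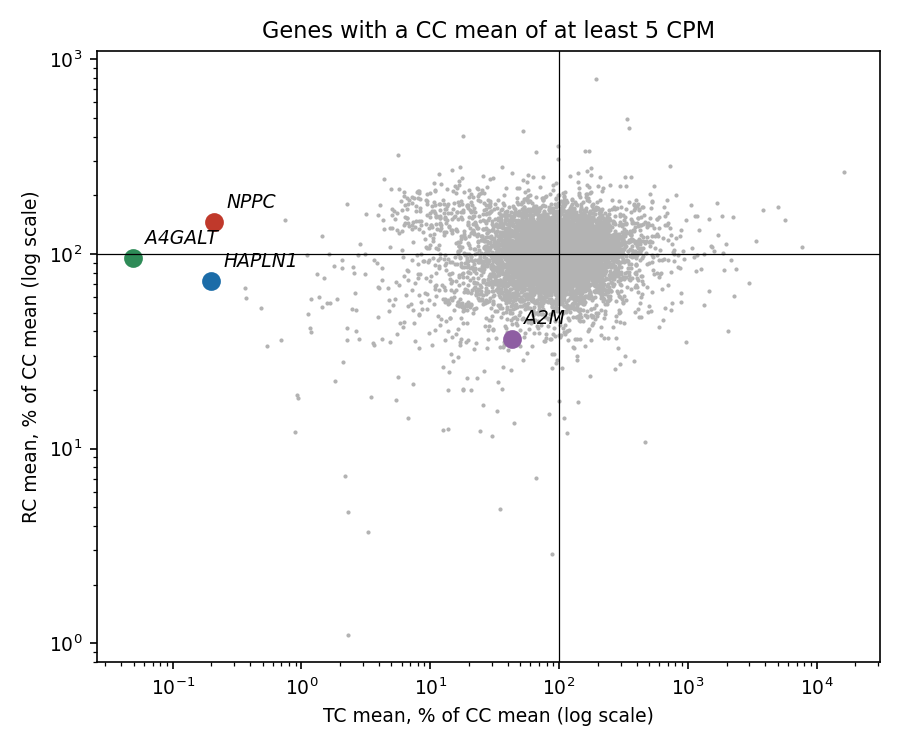
Mean level in TC (horizontal) and in RC (vertical) as a percentage of the control mean, both on log axes, for 10551 genes with at least 5 CPM in CC (grey) and the 4 chosen genes (coloured). HAPLN1, NPPC and A4GALT lie far to the left, at 72.5%, 145% and 94.8% in RC, and A2M lies at 43.0% in TC and 36.6% in RC.

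The genes most like each of the 4 over the 12 libraries were found by the root mean square difference of log2(CPM + 0.1) from the control mean. The points share libraries and depth, and the distances are a description. The added 0.1 limits how deep a fall can appear, most of all for A4GALT and NPPC, so genes that fell less can come out close to them. SYTL5, at a distance of 0.52, and SPRY4, a feedback inhibitor of receptor tyrosine kinase signalling, at 0.69, were nearest to HAPLN1, followed by NPPC (0.98) and RLBP1 (1.16). SYTL5 stood at 279 CPM in CC, 1.01 in TC, 0.688 in PC and 186 in RC. For NPPC the nearest were A4GALT (0.68), SYTL5 (0.77), ETV4 (0.78) and RLBP1 (0.84). ETV4, an ETS transcription factor induced by ERK signalling, was nearest to A4GALT (0.31), followed by GJB1 (0.57), RLBP1 (0.63) and ITIH6 (0.66). ETV4 stood at 235 CPM in CC, 2.61 in TC, 1.73 in PC and 232 in RC, so its TC level was 1.11% of control where that of A4GALT was 0.0491%. A2M was 3.77 to 4.97 away from the other 3 genes. Its nearest were ALDH5A1 (0.17), a mitochondrial enzyme of GABA breakdown, VWA8 (0.20), FBXL16 (0.28) and COL4A4 (0.29), a basement membrane collagen chain. ALDH5A1 stood at 17.1 CPM in CC and at 39.2%, 23.7% and 39.6% of it in TC, PC and RC.

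HAPLN1 acts with proteoglycans and hyaluronan, and most measured genes of that matrix did not fall with it. Of 22 other genes in the list 15 were tested, and in TC 3 were lower and 9 higher, beside 34.7% and 33.2% of all genes. Their median log2 fold change was 0.66, against -0.02 over all tested genes. The large proteoglycan VCAN (versican) dropped to 4.40 ± 1.46 CPM in TC, against 42.9 ± 1.96 in the controls (log2 fold change -3.27, SE 0.19). HMMR, a hyaluronan-binding protein of the mitotic spindle, fell by 4.51 on the log2 scale, and CEMIP, which binds hyaluronan and drives its breakdown, by 1.80. The hyaluronidase HYAL2 rose from 23.8 ± 2.34 to 167 ± 20.4 CPM (2.81, SE 0.14) and the brain proteoglycan BCAN by 1.90 (SE 0.22). NCAN, another brain proteoglycan, rose from 6 reads over the controls to 21.3 ± 21.1 CPM in TC, with 235, 488 and 2432 reads in its 3 libraries. ACAN, the cartilage proteoglycan that HAPLN1 binds, was at 107 ± 13.7 CPM in CC and 108 ± 41.0 in TC (0.02, SE 0.21; adjusted p = 0.947). CD44, the main cell surface receptor of hyaluronan, rose from 1385 to 1798 CPM (0.38, SE 0.07).

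The matrix genes moved differently from HAPLN1 afterwards too. In PC 3 of 15 were lower and 11 higher than in CC, with a median of 0.89, beside 35.9% and 33.2% of all genes. In RC 3 were lower and 5 higher, with a median of 0.29, beside 19.1% and 18.2%. VCAN in RC was at 59.1 ± 3.26 CPM, above its control level (0.46, SE 0.17; adjusted p = 0.0485). HAS2, a hyaluronan synthase, was also higher in RC than in CC (1.26, SE 0.24).

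Of 20 other genes of natriuretic peptide and cyclic GMP signalling 13 were tested, and in TC 5 were lower and 6 higher, beside 34.7% and 33.2% of all genes, with a median of 0.21. NPR2, the receptor of the NPPC product, was at 15.2 ± 3.39 CPM in CC and 17.6 ± 0.218 in TC (0.21, SE 0.13; adjusted p = 0.180), and was lower in RC (-0.58, SE 0.14). The clearance receptor NPR3 was at most 0.0442 CPM in any group mean, and NPPA and NPPB, the genes of the atrial and brain peptides, at most 0.101 and 0.0449. NPR1, the receptor of those peptides, was lower in TC, by 4.32 on the log2 scale from 0.680 CPM. MME (neprilysin), a protease that degrades natriuretic peptides, fell from 19.9 ± 4.52 to 1.87 ± 0.0888 CPM and was back at 21.3 ± 0.666 CPM in RC. The phosphodiesterase PDE3A fell by 3.10 on the log2 scale, while PDE1C rose by 2.34 and PDE5A, which breaks down cyclic GMP, by 1.85. GUCY1A2, a subunit of soluble guanylate cyclase, rose from 1 read over the controls to 8.14 ± 3.34 CPM in TC. The other subunits in the list, GUCY1A1 and GUCY1B1, were at most 0.0599 and 0.0154 CPM in any group mean. In PC 6 were lower and 6 higher (median -0.35), beside 35.9% and 33.2% of all genes. In RC 5 were lower and 2 higher (median -0.36), beside 19.1% and 18.2%.

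Around A4GALT, the enzymes that make its substrate stayed measurable under MAPKi. Of 20 other glycosphingolipid genes 16 were tested, and in TC 6 were lower and 4 higher, beside 34.7% and 33.2% of all genes, with a median of -0.21. B4GALT5 and B4GALT6 make the lactosylceramide that A4GALT uses: B4GALT5 rose from 112 ± 26.6 to 188 ± 19.9 CPM and B4GALT6 fell from 123 ± 35.6 to 85.0 ± 2.14 CPM. ST3GAL5, which takes the same lactosylceramide into gangliosides, fell from 133 ± 6.37 to 32.9 ± 3.31 CPM (-2.02, SE 0.08), and ST8SIA1, the next enzyme on that branch, by 2.31 on the log2 scale. Of the later enzymes of the globo series, B3GALNT1, which extends Gb3, was listed at 0 in all 12 libraries, and B3GALT5 and GBGT1 were at most 0.0376 and 0.00864 CPM in any group mean. Some genes are listed under numbered copies, which were not read for the list genes. An entry at 0 therefore does not show that a gene was off. GLA, the lysosomal enzyme that removes the galactose that A4GALT adds, fell by 0.67 (SE 0.11). PSAP, the precursor of the saposins that help lysosomal enzymes, rose from 2191 to 8482 CPM (1.95, SE 0.08), and HEXA, a lysosomal hexosaminidase subunit, by 0.66. In PC 8 were lower and 3 higher (median -0.45), beside 35.9% and 33.2% of all genes, and in RC 4 were lower and 5 higher (median -0.15), beside 19.1% and 18.2%.

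Among protease inhibitors and relatives of A2M, some fell in TC and stayed low in RC, SERPINF1 and C3 among them, while TIMP1 fell and returned. Of 19 other genes of the A2M family, its receptor and other inhibitors 14 were tested, and in TC 7 were lower and 3 higher, beside 34.7% and 33.2% of all genes, with a median of -0.44. In PC 9 were lower and 3 higher (median -0.71), beside 35.9% and 33.2%. In RC 7 were lower and 1 higher, beside 19.1% and 18.2% (median -0.60, against 0.00 over all tested genes). SERPINA3 (alpha-1-antichymotrypsin) was at 6099 ± 800.3 CPM in CC, 313 ± 114 in TC, 52.0 ± 16.8 in PC and 3341 ± 132 in RC. C3, a complement protein of the same family as A2M, fell by 4.45 on the log2 scale in TC from 1.52 CPM and was still at -3.88 (SE 0.63) in RC. SERPINF1 (pigment epithelium-derived factor) was at 73.7 ± 15.9 CPM in CC, 33.1 ± 5.15 in TC, 11.1 ± 1.78 in PC and 9.93 ± 0.532 in RC, with no return. LRP1, the receptor that clears A2M, was at -0.17 (SE 0.16) in TC, and was lower in PC (-0.70, SE 0.16) and in RC (-1.02, SE 0.16). LRP2, a related endocytic receptor, was lower by 2.15 on the log2 scale in TC. The metalloproteinase inhibitors TIMP2 and TIMP3 rose in TC by 1.46 and 0.39, and CD109, a membrane-bound relative of A2M, by 0.72. TIMP1, of the same group as TIMP2 and TIMP3, fell from 170 to 104 CPM (-0.71, SE 0.08) and was at 168 CPM in RC. SERPINE2 fell from 7502 to 1714 CPM (-2.13, SE 0.07) and was at 5978 CPM in RC, still lower than in CC (-0.33, SE 0.07). The close paralogs PZP and A2ML1 were at most 0.272 and 0.0481 CPM in any group mean.

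**Figure D4:**
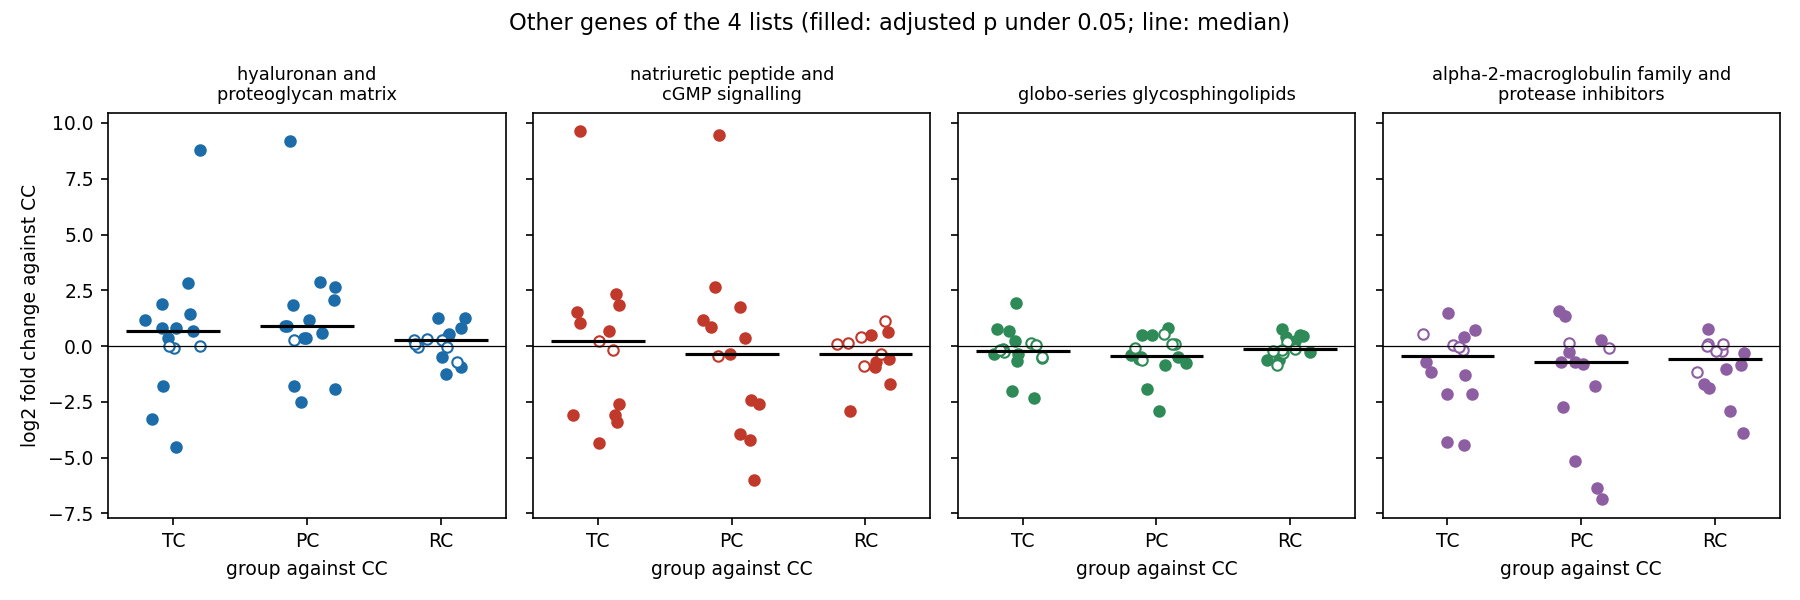
Log2 fold change against CC of the other genes of the lists around HAPLN1, NPPC, A4GALT and A2M (left to right) in TC, PC and RC, where filled points have an adjusted p under 0.05 and lines are medians. The matrix list sits above 0 in TC, with a median of 0.66, and the protease inhibitor list below 0 in TC and RC, at -0.44 and -0.60, and all comparisons share the CC libraries.

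The genes next to the 4 on the chromosome were examined with the 3 nearest protein-coding genes on either side. Of these 24 neighbours 18 were tested, and in TC 8 were lower and 5 higher, beside 34.7% and 33.2% of all genes, with a median of -0.12. In PC 7 were lower and 6 higher, beside 35.9% and 33.2%, and in RC 6 and 4, beside 19.1% and 18.2%. VCAN, the proteoglycan gene described above, lies 55.5 kb from HAPLN1, and XRCC4, a gene of DNA end joining 284 kb away on the same side, fell by 0.95 (SE 0.11). EDIL3, the next gene on the other side at 219.7 kb, rose from 1.91 to 10.2 CPM (2.42, SE 0.31). Near A4GALT, PACSIN2 fell by 1.97 (SE 0.09) at 114.1 kb, while ARFGAP3, the nearer gene at 75.2 kb, was at 0.07 (SE 0.14). The tested neighbours of NPPC had values from -0.55 (PTMA) to 0.34 (PDE6D), and those of A2M from -0.75 (CLEC2D) to 0.20 (M6PR).

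**Figure D5:**
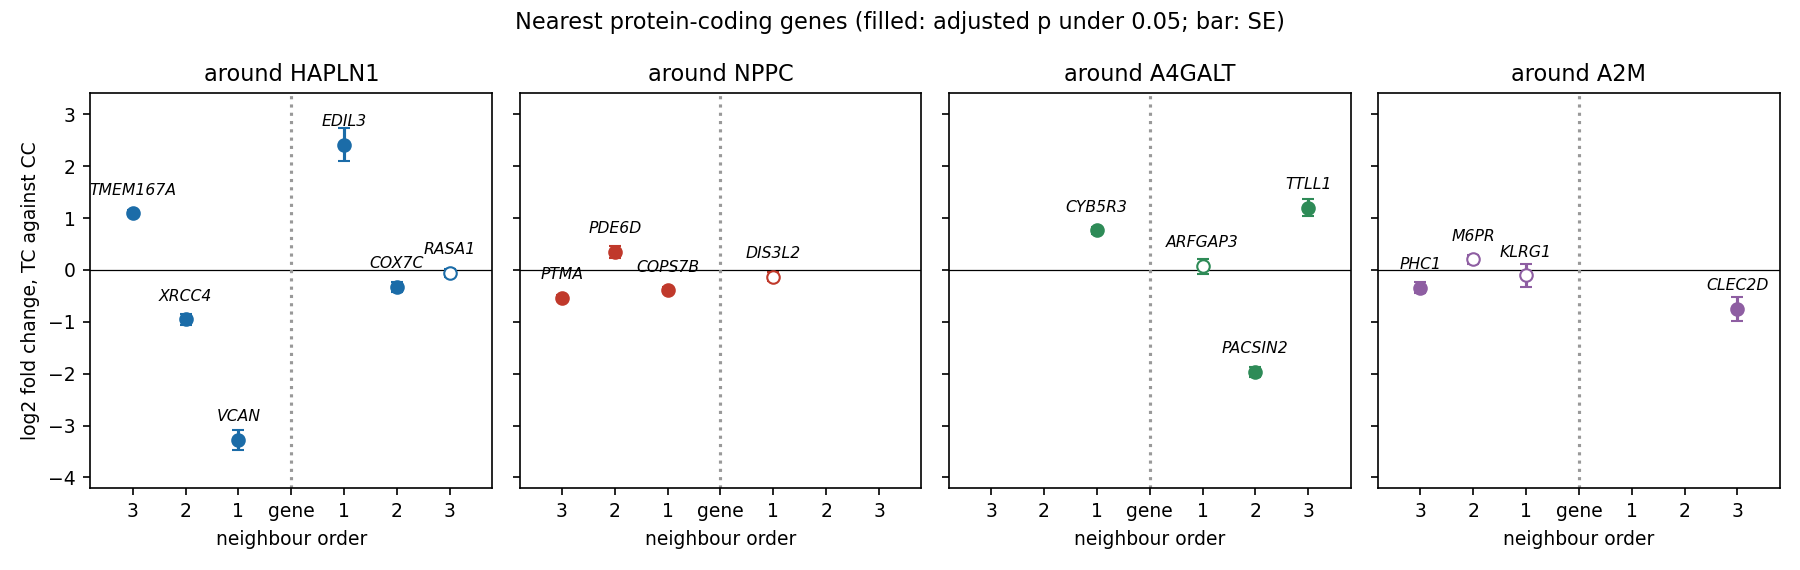
Log2 fold change in TC against CC, with SE bars, of the tested genes among the 3 nearest protein-coding genes on the side of lower coordinates (left of the dotted line) and higher coordinates (right), by order from the gene. VCAN, at -3.27, is the lowest of the neighbours, and filled points have an adjusted p under 0.05.

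Of the 4 genes 3 overlap other annotated genes. HAPLN1 contains the small RNA pseudogenes RN7SKP295 and RNU6-620P. A4GALT overlaps CYB5R3, which rose from 246 CPM in CC to 418 in TC and 434 in PC. In those 6 libraries CYB5R3 had 16375 to 21949 reads where A4GALT had at most 1. The antisense gene A2M-AS1 had 0 to 9 reads in any library, against 14223 or more for A2M, and whether counting used strand is not stated in the sources used here.

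The study asked whether mRNAs lowered by MAPKi encode proteins rich in certain amino acids, and the 4 coding sequences were placed on that scale. Lys, Glu, Asp and Asn together made up 20.6% of codons in HAPLN1, 20.6% in NPPC, 15.9% in A4GALT and 21.0% in A2M, against a median of 21.5% over 12726 tested genes. All 4 were thus below the median, but HAPLN1, NPPC and A2M lay in the middle of the range, above 42.9%, 43.0% and 46.0% of the genes. A4GALT was above 15.8% of them. The study compared averages over sets of genes. These were genes lowered after a shorter treatment and, in a further comparison, genes lowered both by MAPKi and in persister cells. These 4 chosen genes therefore do not test its finding. HAPLN1 had 8.19% Asp, more than 97.3% of the genes, and only 3.39% Glu, more than 5.27% of them. NPPC had 10.3% Lys over 126 codons. The shares of G or C at the third codon position were 84.9% in NPPC and 89.2% in A4GALT, against a median of 58.8%, while A2M had 53.9%.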

How the data were processed

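RNA was measured in 12 libraries of A375 cells, 3 per group. The deposited table holds raw counts per gene with no normalization. Per the submitters' processing notes, reads were handled with fastp 0.20.1, HISAT2 2.2.1 and HTSeq 0.13.5 on GRCh38.p13. The authors counted exon reads with the NCBI annotation.

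The 4 genes, the gene lists and the tests were chosen with earlier results of these data known. Genes with a mean scaled count of at least 10 were tested (15916 of 44659), and all 4 genes passed. HAPLN1, NPPC and A4GALT passed only through the CC and RC libraries. TMM factors ran from 0.965 to 1.02. All 12 libraries were fitted together with the quasi-likelihood test of edgeR 4.0.16 (R 4.3.3, limma 3.58.1; 8 residual degrees of freedom, common coefficient of variation 0.182), two-sided, with Benjamini-Hochberg adjustment over all tested genes and a threshold of 0.05. Alternatives included DESeq2 1.42.0. The fit was tested on simulated counts with 200 changed genes, far fewer than were called in these data, so nothing is read from it. Count ratios have exact 95% intervals. Named genes are the 4 genes, the nearest neighbours, the 4 most similar genes per gene, and examples of drug output. Also named are up to 3 lower and 3 higher genes per list with the largest change in TC. Other named genes were chosen after their values were seen. These were ACAN, CD44, HAS2, NPR2, NPR3, NPPA, NPPB, GUCY1A1, GUCY1B1, B4GALT5, B4GALT6, B3GALNT1, B3GALT5 and GBGT1. LRP1, SERPINF1, TIMP1, SERPINE2, PZP, A2ML1, DCT, NGFR, S100B, MITF, KDR, HGF and EGR1 were also chosen in this way. Promoters came from RefSeq, and exons and coding sequences from GENCODE v44, matched by symbol. Of the listed entries 5088 are numbered copies of genes, none of them of these 4. No 2 libraries of a group agreed within sampling noise.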

Additional observations from a re-analysis of the deposited data

Results flagged for a closer look

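A2M differed between TC and PC, which are the same treatment sampled at day 0 and after 2 days without drug. The log2 fold change of PC against TC was -1.05 in the edgeR fit, with all 3 PC libraries below all 3 TC libraries. Levels were 742 to 821 CPM in TC and 366 to 395 CPM in PC. TC and PC libraries had both been used in choosing the gene, so the difference is a description.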

How the results depend on the processing

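Results were recomputed under 21 alternatives. A2M kept its call in all 21 for RC against CC (-1.58 to -1.35), its value for PC against TC ran from -1.08 to -1.005, and A4GALT was past the threshold in none for RC against CC (-0.24 to 0.03). HAPLN1 in RC against CC passed it with upper quartile factors (-0.50) and in a fit of only the 2 groups (-0.46), and leaving out single libraries gave -0.61 to -0.32. NPPC in RC against CC did not pass against a 1.5-fold threshold in glmTreat (0.54) or DESeq2 (0.55), and leaving out single libraries gave 0.39 to 0.72. For PC against TC, a description, HAPLN1 ran from -0.37 to 1.02 and NPPC from -2.07 to -1.16. NPPC has no value without PC replicate 1, where PC has 0 reads, nor in the fit of only these 2 groups, where it does not pass the filter.

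Only genes beyond a 1.5-fold threshold are called in the next settings, so their counts are smaller by construction. glmTreat called 3068 genes lower and 2564 higher in TC, 3168 and 2731 in PC, 401 and 215 in RC, and 183 and 371 for PC against TC. DESeq2 with this threshold called 2488 and 2122, 2542 and 2303, 277 and 143, and 140 and 308. The count of genes lower in PC than in TC, 1992, ran from 1259 (without PC replicate 3) to 2469 without single libraries, with 1325 without PC replicate 2; these fits have fewer samples.

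Replicate numbers were not taken to pair the libraries, since of 18 same-numbered pairs 2 had a correlation of deviations over 0.1 (-0.04 to 0.16). As a hint from the data, 9 of 12 libraries were closest on average to their own number. The count columns also carry the same numbered endings in every group, in replicate order, so pairing remains possible. With the replicate block, 5511 genes were lower and 5347 higher in TC, 5696 and 5319 in PC, 3008 and 2956 in RC, and 2044 and 1994 for PC against TC. Depth limits TC and PC levels of NPPC and A4GALT, which rest on 0 to 5 reads a library.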
